A study of Arabidopsis thaliana with 32 samples.

Results

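Arabidopsis roots were arrayed in 16 conditions with 2 arrays each, and the sample titles number the arrays from 17 to 32 and from 33 to 48. Each stretch of numbers held 1 array of every condition. The 16 arrays numbered 33 to 48 are called the second run and the 16 numbered 17 to 32 the first run, out of 32 arrays in all, and they were compared as 16 pairs of the same solute and dose. The plants were Columbia-0, grown hydroponically, and whole roots were taken at 16 days of age after 15 min in fresh solution. The conditions, equal in both runs, were a control without added solute and 4 solutes: NaCl in doses of 25, 50, 75 and 100 mM; sorbitol, dosed with 50, 100 or 150 mM; PEG, which is polyethylene glycol 8000, with 75, 100, 125 or 150 mM as labelled; and EG, or ethylene glycol, with 50, 100, 150 or 200 mM. Nothing in the labels states what separates the runs, whether separate cultures, harvests, extractions or hybridisations, so the state of the plants and the handling of the RNA cannot be told apart. Each run happened once: a p-value here measures the spread of the run difference over the 16 pairs, not over further runs.

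A root is a mixture of dividing, elongating and mature cells. Growing cells loosen their walls with expansins and glycosyl hydrolases and lay cellulose along tubulin arrays. Cells that recycle their contents wrap cytoplasm in autophagosomes, whose membrane carries the ubiquitin-like protein ATG8, and sort membrane proteins into the vacuole with the endosomal ESCRT proteins. Calcium sensors of the calmodulin-like group and WRKY factors are known to respond early to touch, wounding and microbial molecules. In whole roots, fewer cells of a type and less RNA per cell cannot be told apart.

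The deposited values were read as log2 array values, and a difference is the mean over the 16 pairs of the second minus the first run, in log2 units. A gene was called where limma, fitted across 28283 genes with the solute and dose as pair, gave an adjusted p under 0.05. Of these genes 9775 (34.6%) were called higher and 7982 (28.2%) lower in the second run, 62.8% in all, so a count of called members says something of a family only beside these shares. The median difference over all genes was 0.06. Beyond 2-fold, 231 genes (0.817%) were called higher and 668 (2.36%) lower. All 231 raised genes were higher in 16 of 16 pairs, and 655 of the 668 lowered ones were lower in 16 of 16. Over all genes, 10.3% were higher and 13.1% lower in every pair. Every second-run array lay above every first-run array for 5.43% of genes, and below for 7.11%.

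The median of the array values was 4.16 ± 0.02 in the second run and 4.22 ± 0.02 in the first (SD, n = 16 arrays each). It was lower in the second run in 16 of 16 pairs, by 0.06 on average (exact two-sided sign-flip permutation test over pairs, p = 3.05e-05, the smallest the design can give being 3.1e-05). The SD of the values on an array was 2.1 ± 0.04 in the second run and 2.17 ± 0.04 in the first (exact permutation p = 0.000275, lower in 15 of 16 pairs). Of the marker genes fixed for root tissues, only the root hair genes EXPA7 and EXPA18 had a probe set with that name. Their run means lay between 6.59 and 7.73 in the second run, against 5.98 to 6.96 in the first. The 10 named nuclear photosynthesis genes had run means of at most 4.46 in the second run and 4.44 in the first, and 5 pollen and flower genes of at most 3.38 in the second run and 3.12 in the first.

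Autophagy genes were lower in the second run. All 11 autophagy genes with a named probe set were called lower, against 28.2% of all genes, with a median difference of -0.77. They comprised 9 ATG8 genes, the ATG8-conjugating enzyme ATG3 and AT5G66930, listed under autophagy by its synonym. ATG8E read from 4.75 through a median of 4.99 to 5.31 in the second run, against 6.08, 6.58 and 6.80 in the first. Its arrays did not overlap between runs, and the difference was -1.58 (SE 0.05, adjusted p = 2.94e-19; 2.98-fold lower). ATG8H read 6.36, 6.88 and 7.13 (lowest, median, highest) in the second run, against 7.76, 8.07 and 8.46 in the first, a difference of -1.27 (SE 0.05, adjusted p = 1.44e-17). Again no second-run array reached the lowest first-run array. The other ATG8 genes differed by between -0.97 (APG8A) and -0.34 (ATG8G). ATG3 differed least, by -0.18 (SE 0.04, adjusted p = 0.000708), with 14 of 16 pairs lower. The family's median was below 0 in each of the 16 pairs.

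**Figure D1:**
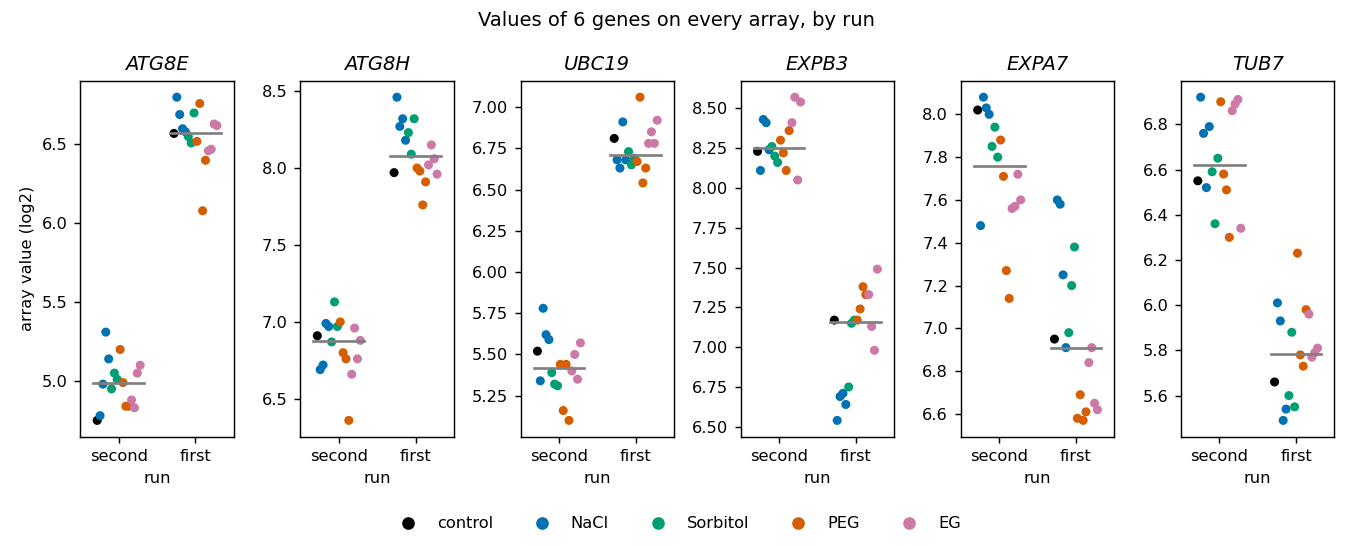
Array values (log2, vertical axis, a separate scale for each gene) of 6 genes on all 32 arrays, the second run left of the first, 1 point per array coloured by solute, grey bars at the median of the run. ATG8E, ATG8H and UBC19 lay lower and EXPB3 and TUB7 higher on all second-run arrays than on any first-run array, whereas the EXPA7 arrays overlapped.

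Genes of vacuolar sorting proteins were lower as well. Of 14 VPS genes, mostly ESCRT subunits, 10 were called lower and 0 higher (28.2% and 34.6% of all genes), with a median of -0.53. VPS2.2, an ESCRT-III subunit, read 5.70, 6.00 and 6.28 (lowest, median, highest) in the second run, against 6.79, 7.0 and 7.31 in the first. The runs did not overlap for it, with a difference of -1.01 (SE 0.06, adjusted p = 1.3e-14). VPS20.1 (-0.92), VPS24.1 (-0.82), SNF7.2 (-0.72) and VPS2.1 (-0.71), all of the same polymer that pinches vesicles into the endosome, were also lower in 16 of 16 pairs. VPS46.2, VPS24.2, VPS9B and AT5G04920 were not called, at -0.02, 0.10, 0.18 and 0.05. VPS24.2 and VPS9B were dim, with run medians of at most 2.71.

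Ubiquitin-conjugating enzymes, which pass ubiquitin to ligases, were called lower in 12 and higher in 1 of 16 genes (median -0.45). UBC19 read 5.10, 5.42 and 5.78 in the second run, against 6.54, 6.71 and 7.06 in the first. The runs stood fully apart, by -1.32 (SE 0.05, adjusted p = 1.42e-17). UBC16 followed at -0.91 and UBC29 at -0.83, and the peroxisomal PEX4 at -0.72. UBC35 was the exception, at 0.27 (SE 0.05, adjusted p = 2.74e-05). Ubiquitin-specific proteases, which take ubiquitin off again, ran the other way: 9 of 12 were called higher and 1 lower, with a median of 0.25. UBP23 read 7.83, 8.05 and 8.19 in the second run, against 7.04, 7.26 and 7.49 in the first, a difference of 0.78 (SE 0.04, adjusted p = 1.2e-14). UBP15 (0.62) and UBP26 (0.49) did not overlap between runs either, and UBP16 alone was called lower (-0.25). The 2 enzyme families also differ in gene length, with a median of 3950 bases for the proteases and 2028 for the conjugating enzymes.

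Calcium sensors and stress-response regulators were lower in the second run. Of 7 calmodulin-like genes, 5 were called lower and 0 higher, with a median of -0.85. CML43 read 2.67, 2.96 and 3.32 in the second run, against 3.73, 4.21 and 4.51 in the first, a difference of -1.19 (SE 0.08, adjusted p = 2.43e-13) with no overlap. CML23 (-1.10), CML41 (-0.88), CML42 (-0.85) and CML38 (-0.81) were lower in all 16 pairs, whereas CML37 was not called at -0.10. Of 7 WRKY transcription factor genes 5 were called lower and 1 higher (median -0.57). WRKY41 read 3.77, 4.55 and 5.13 in the second run, against 5.45, 5.83 and 6.96 in the first, a difference of -1.55 (SE 0.09, adjusted p = 2.83e-14). WRKY47 differed by -1.10, the immunity regulator WRKY29 by -0.62 and WRKY6 by -0.57. WRKY22, often named with WRKY29 in responses to bacterial flagellin, was not called, at 0.05, and WRKY20 was higher by 0.48.

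A list of touch and wound transcripts held 8 named genes, of which 5 were called lower and 1 higher (28.2% and 34.6% of all genes). EXO, a gene tied to brassinosteroid-dependent growth, differed most, by -1.24 (SE 0.09, adjusted p = 4.5e-12), reading 3.83, 4.17 and 4.78 in the second run, against 4.63, 5.59 and 6.20 in the first. The zinc finger repressor STZ (-0.50) and the ubiquitin ligase gene PUB24 (-0.56) were lower too, while its relative PUB23 was higher by 0.42 and PUB22, of the U-box family but not of this list, did not pass (0.02). CML38 and WRKY6 are members of this list as well as of their own families.

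Among genes with a symbol, PUB54 and MT1B were lowered most. PUB54, a U-box ubiquitin ligase gene, read 2.23, 2.61 and 3.29 in the second run, against 5.24, 5.92 and 6.46 in the first. No array of the second run came near the first, with a mean difference of -3.18 (SE 0.10, adjusted p = 7.09e-20; 9.09-fold lower). MT1B, a metallothionein gene, read 4.02, 4.79 and 5.54 in the second run, against 6.56, 7.54 and 8.15 in the first, a difference of -2.60 (SE 0.09, adjusted p = 8.9e-19). The osmotin-like gene OSM34 was 3.1-fold lower (-1.63, SE 0.12) and the chitinase gene CHI 3.07-fold lower (-1.62, SE 0.06), both with no overlap of runs. OSM34 is known for its answer to osmotic stress, and its pairs ranged from -2.72 to -0.66. ATPMEPCRB, a pectin methylesterase gene, differed by -2.21 (SE 0.07), but of the 4 named pectin methylesterase and inhibitor genes 2 were called higher and only this one lower, with PMEPCRF at 0.68 without overlap. XTH18, which encodes an enzyme that cuts and rejoins xyloglucan, differed by -1.57 (SE 0.07). Of the beta-glucosidase genes, BGLU32 (-2.50) and BGLU27 (-1.70) were lowered most, yet 5 of the 24 in that family were called higher and 9 lower, with a median of 0.04. BGLU32 was the least even of these, with pair differences from -4.20 to -0.21 and overlapping runs.

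Other genes with a symbol at the low end were AGL79, a MADS-box gene (-1.85), the cytochrome P450 gene CYP71B6 (-1.75), bZIP58 (-1.70), cwINV6, of the cell wall invertase family (-1.55), and MSRB8, a methionine sulfoxide reductase gene (-1.52). None of them overlapped between runs. Their families held calls in both directions: of 67 AGAMOUS-like genes 16 were called higher and 13 lower, of 25 bZIP genes 5 and 7, and of 25 cytochromes P450 3 and 6. Of 6 methionine sulfoxide reductase B genes 1 was called higher and 4 lower, with a median of -0.30.

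Of the named genes, AT2G30660, known by locus only, differed most, reading 1.25, 2.19 and 3.11 in the second run, against 5.34, 6.00 and 6.56 in the first (-3.80, SE 0.10, adjusted p = 1.33e-21; 14-fold lower). The largest lowering over all genes tested, in a probe set without a gene name, was 56.9-fold. AT1G13310 (-3.35), AT1G65481 (-3.19), AT1G44130 (-3.08), AT1G58320 (-3.08), AT4G10860 (-3.00) and AT5G25260 (-2.88) came next. The remaining loci among the 15 most lowered named genes were AT1G53620, AT1G53625, AT3G55790, AT3G18250, AT2G15220, AT5G35525 and AT2G39400, at -2.85 to -2.70. The ranking took only genes with 1 sign in all 16 pairs, and none of the 15, PUB54 included, had overlapping runs.

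**Figure D2:**
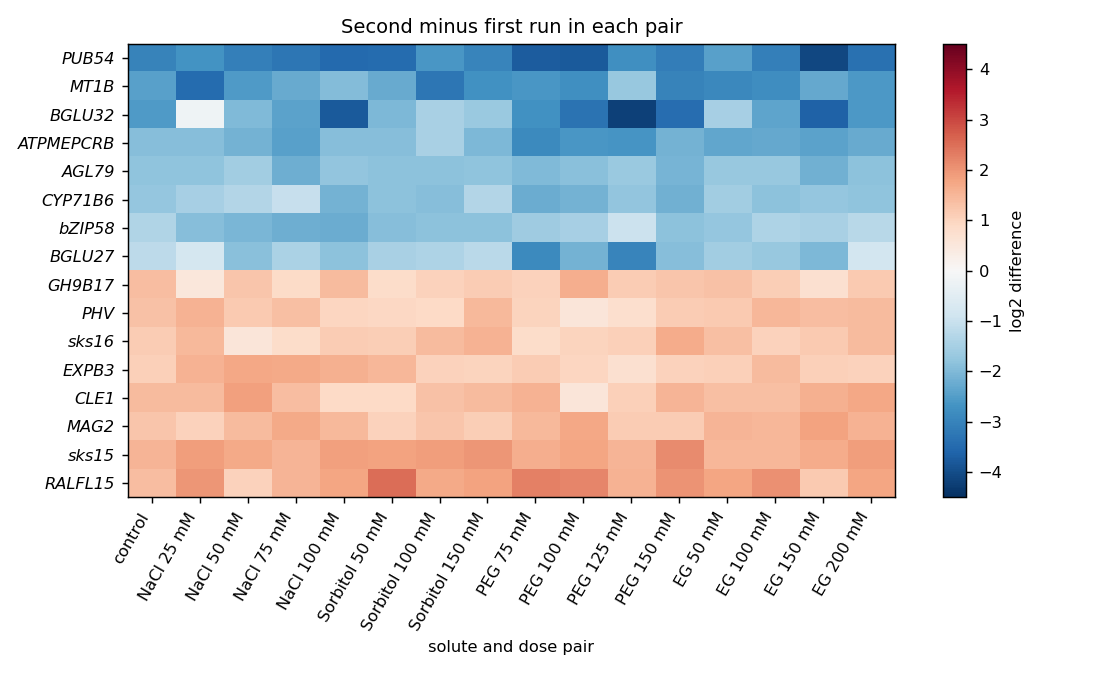
Second minus first run (log2, colour scale from -4.5 to 4.5) in each of the 16 solute and dose pairs (columns) for the 8 genes with a symbol most lowered (upper rows, blue) and the 8 most raised (lower rows, red), taken from genes with 1 sign in all pairs. The palest cell of the upper rows is BGLU32 at NaCl 25 mM, at -0.21, and of the lower rows GH9B17 at NaCl 25 mM, at 0.50.

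Basic helix-loop-helix genes, among them genes of iron regulation, were called lower more often than higher. Of 9 bHLH genes, grouped by symbol, 5 were called lower and 1 higher (median -0.30). bHLH121, needed for the iron deficiency response, read 6.79, 7.0 and 7.10 in the second run, against 7.54, 7.85 and 7.97 in the first. That is a difference of -0.85 (SE 0.04, adjusted p = 6.5e-16) without overlap. Its partners bHLH115 (-0.59) and bHLH104 (-0.34) were lower too, whereas ILR3, of the same group of partners, was higher by 0.19 (SE 0.04, adjusted p = 2.8e-05) and bHLH34 was not called (-0.10). In a list of the iron deficiency response, PYE (-0.39) and BHLH101 (-0.33) were called lower. The third named gene of that list, BGLU42, was not called (0.07).

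Genes of the transcription machinery split by subunit. Of 9 Mediator genes, whose products bridge transcription factors and RNA polymerase II, 7 were called lower and 1 higher. MED9 read 5.01, 5.63 and 5.92 in the second run, against 6.51, 6.80 and 7.11 in the first (-1.25, SE 0.06, adjusted p = 1.05e-16), and MED19A differed by -0.90 (SE 0.04). The 17 RNA polymerase subunit genes had a median of -0.06, with 7 called higher and 6 lower. Those lower were small subunits with NRPB names: NRPB6A (-1.0), NRPB10 (-0.90), NRPB6B (-0.76), NRPB8B (-0.70), NRPB9A (-0.47) and NRPB9B (-0.31). The name does not make a subunit exclusive to RNA polymerase II, so these values do not set that polymerase apart from the others. Highest were the 2 largest subunits of RNA polymerase I, NRPA2 (0.78, SE 0.06) and NRPA1 (0.62, SE 0.05), and of RNA polymerase III, NRPC1 (0.53) and NRPC2 (0.51). NRPA2 read 6.74, 7.07 and 7.26 in the second run, against 5.84, 6.28 and 6.44 in the first, without overlap. The run difference also varied with gene length, as given below. Relative to named genes of the same length class and level, 9 of the 17 polymerase genes lay above and 8 below, with a median of 0.03.

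Histone H2B genes were lower, at -0.92 for HTB1, -0.80 for HTB2, -0.65 for HTB11 and -0.53 for HTB4, all 4 called. HTB1 read 4.62, 5.21 and 5.54 in the second run, against 5.69, 6.11 and 6.49 in the first, with no overlap. The centromeric histone gene HTR12 (0.05) and the linker histone gene HIS1-3 (-0.04) were not called, and the deacetylase gene HDA15 was higher by 0.52. Of 10 chromatin remodelling factor genes, 6 were called higher and 0 lower (median 0.21), led by CHR18 (0.62, SE 0.06, adjusted p = 1.8e-09) and CHR24 (0.38). Splicing factor genes PRP39-2 (0.97) and PRP39 (0.92), the nucleoporin gene NUP1 (0.94) and PRL, which encodes the replication helicase subunit MCM7 (0.93), were higher without overlap of runs. Other cell cycle genes did not follow PRL: AUR1 (-0.22) and SIM (-0.17) were lower, SIM losing its call after centring or quantile normalisation, and AUR2 (0.18) and AUR3 (0.06) were not called.

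Expansin and tubulin genes were mostly higher in the second run. Of 23 expansin genes 16 were called higher and 3 lower, against 34.6% and 28.2% of all genes, with a median of 0.30. EXPB3 read 8.05, 8.25 and 8.57 in the second run, against 6.54, 7.16 and 7.49 in the first, a difference of 1.23 (SE 0.06, adjusted p = 2.4e-15). EXPA7 and EXPA18, both known from root hairs, differed by 0.77 and 0.61, with 15 and 16 of 16 pairs higher and with overlapping arrays. XTH26, also a root hair gene, was higher by 0.25 (SE 0.07, adjusted p = 0.0032). The fourth named gene of the root hair list went the other way: SCN1, which limits where on the cell a hair starts, differed by -0.71 (SE 0.04, adjusted p = 1.83e-14), lower in 16 of 16 pairs with no overlap. The expansin-like genes EXLB1 (-0.46) and EXLA1 (-0.31), and EXPA20 (-0.32), were lower.

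Glycosyl hydrolases of family 9, endoglucanases that act on cellulose, were called higher in 11 and lower in 0 of 19 genes (median 0.24). GH9B17 read 5.11, 5.48 and 5.72 in the second run, against 3.94, 4.29 and 4.86 in the first (1.11, SE 0.07, adjusted p = 8.44e-14). GH9C2 (0.45), GH9B10 (0.40), GH9C1 (0.36) and GH9B13 (0.36) were also higher, and the bright GH9B7 was not called (-0.06). Tubulin genes were called higher in 4 and lower in 0 of 6, led by the beta-tubulin gene TUB7, which read 6.3, 6.62 and 6.92 in the second run, against 5.49, 5.79 and 6.23 in the first (0.86, SE 0.06, adjusted p = 7.1e-13). TUB6 (0.48), TUB1 (0.44) and TUB5 (0.19) followed, and TUB9 was not called (0.09). Other families grouped as cytoskeletal lay nearer the shares of all genes (34.6% higher, 28.2% lower). Of 9 NETWORKED actin-binding genes 4 were called higher and 1 lower. Of 16 genes grouped under the TON1-recruiting motif by symbol or synonym alone, 6 were called higher and 4 lower. Its members were not checked further, and its extremes, TRM82 (0.64) and ATOBGM (-1.35), carry symbols that need not be of this family. The wall protein genes sks15 and sks16, relatives of the growth-direction gene SKU5, were among the most raised. The gene sks15 read 8.17, 8.48 and 8.75 in the second run, against 6.45, 6.70 and 7.03 in the first (1.74, SE 0.05, adjusted p = 3.05e-21; 3.34-fold higher), and sks16 differed by 1.17 (SE 0.06).

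Other families of wall enzymes held calls in both directions. Xyloglucan endotransglucosylase genes were called higher in 3 and lower in 2 of 10 (median -0.02), with XTH21 at 0.70 and XTH18 at -1.57. Class III peroxidases were called higher in 4 and lower in 3 of 8, with AT5G64120 at -1.87 and Prx37 at -1.26, against PRX52 at 0.52.

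Calmodulin-binding IQ-domain genes, whose proteins sit on microtubules, were called higher in 9 and lower in 2 of 17, against 34.6% and 28.2% of all genes. Their median was 0.19, with IQD23 at 0.80, IQD29 at 0.65 and IQD31 at 0.62. Of 15 genes of exocyst and other SEC proteins, which carry vesicles to and through the secretory path, 8 were called higher and 3 lower (median 0.19). AT3G63460, a SEC31 gene by synonym, read 9.05, 9.20 and 9.29 in the second run, against 8.03, 8.19 and 8.30 in the first (1.02, SE 0.03, adjusted p = 6.2e-20). The exocyst genes SEC10 (0.69), SEC15A (0.65) and SEC5A (0.57) were higher and SEC1B (-0.83) and the small SNARE gene SEC22 (-0.41) lower. MAG2, which acts in export from the endoplasmic reticulum, was higher by 1.38 (SE 0.06, adjusted p = 1.55e-16), and CLUB, a subunit of a tethering complex of cell plate formation, by 0.93 (SE 0.04).

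**Figure D3:**
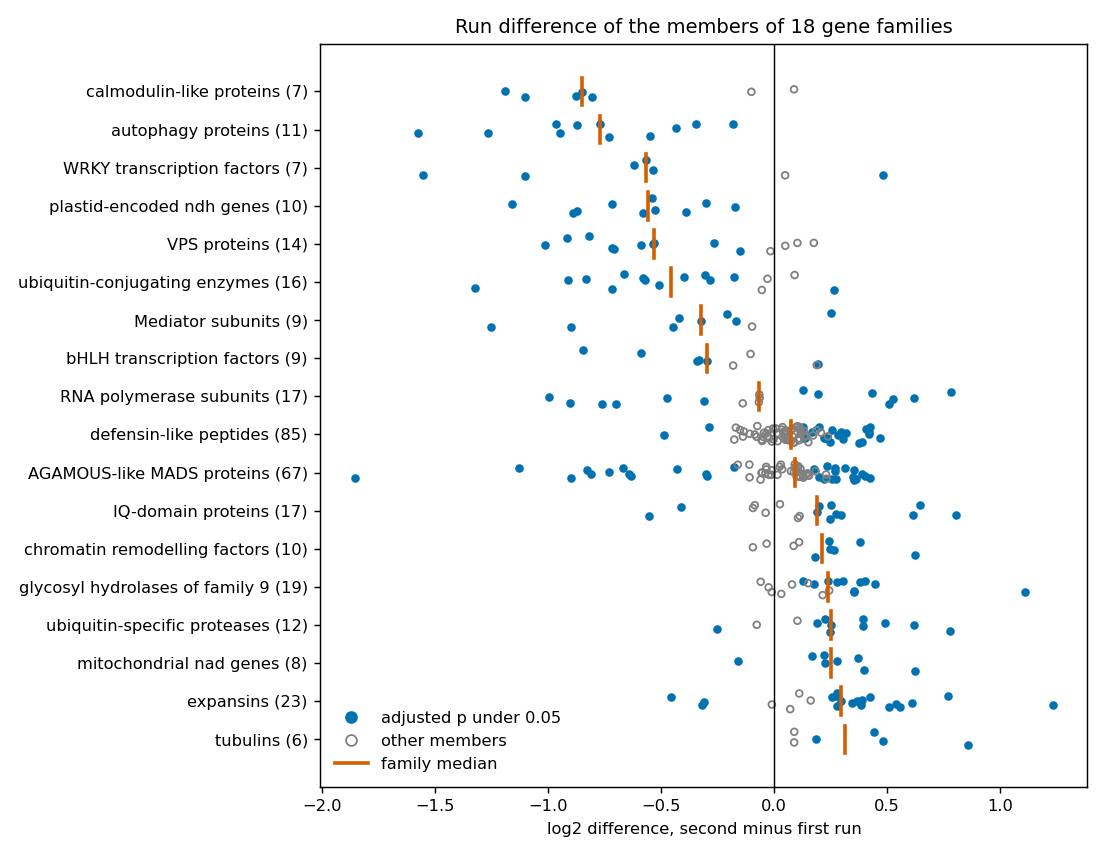
Log2 difference of the second minus the first run (horizontal axis) for every named member of 18 families, with the number of members in brackets; filled points passed the adjusted p, open ones did not, and orange bars mark family medians. Of these 18, calmodulin-like and autophagy genes sit farthest left, with medians of -0.85 and -0.77, and expansins and tubulins farthest right, with 0.30 and 0.32; the cation/H+ exchangers, at 0.31, are not plotted.

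Calls in transporter families are to be read beside the shares of all genes, 34.6% higher and 28.2% lower. Those shares depend on level. Among 2827 genes with mean array values of 1.57 to 2.01, 987 were called higher and 116 lower. Among the 2829 brightest genes, from 7.06 up, 1118 were called higher and 1242 lower. TMT1, the vacuolar monosaccharide carrier gene, read 8.99, 9.13 and 9.20 in the second run, against 7.77, 8.08 and 8.23 in the first (1.06, SE 0.04, adjusted p = 2e-18). Of 9 cation/H+ exchanger genes 7 were called higher and 0 lower (median 0.31), but their median level was 1.85, and only CHX16 had run medians above 5 (0.74, SE 0.07). Among 13 NRT1/PTR genes, 6 were called higher and 3 lower, with the nitrate excretion gene NAXT1 at 0.67 and the glucosinolate carrier genes GTR2 at 0.45 and GTR1 at -0.15. All 3 lower calls, AT1G72125, GTR1 and AT1G59740, were lost after centring or quantile normalisation. Of 16 SWEET sugar transporter genes 7 were called higher and 3 lower: SWEET2 (-0.70, without overlap), SWEET13 (-0.45) and SWEET16 (-0.41), with a median family level of 1.68. The median difference of the SWEET genes was 0.12, and -0.41 without the dimmest 25% of genes. Of 10 glutamate receptor channel genes 3 were called higher and 4 lower, with GLR2.2 at -1.05 (SE 0.07, adjusted p = 7.75e-13). The median of the glutamate receptor genes was -0.03, and 0.05 without the dimmest 25% of genes. ACLB-1, of ATP-citrate lyase in the cytosol, was higher by 1.01 (SE 0.06), and PHV, a class III HD-ZIP regulator gene, by 1.16 (SE 0.07). KIN2, known from cold and abscisic acid responses, was higher by 1.09 (SE 0.10) but dim, at 1.97, 2.81 and 3.49 in the second run, against 1.17, 1.70 and 2.00 in the first.

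Peptide genes had no common direction. RALFL15 was the most raised named gene, reading 4.53, 5.0 and 5.40 in the second run, against 2.69, 3.23 and 3.53 in the first (1.78, SE 0.09, adjusted p = 1.05e-15). RALFL31 was higher by 0.77, and RALFL32 (-1.07), RALFL33 (-1.01) and RALFL22 (-0.74) were lower, out of 18 genes with 8 called higher and 3 lower. CLE1 was higher (1.33) and CLE14 lower (-1.59), and 3 of 16 CLE genes were called higher and 5 lower. Of 85 defensin-like genes 22 were called higher and 2 lower, a share under that of all genes, at a median level of 1.49. Among the 2830 dimmest genes, with mean values of at most 1.57, 676 were called higher and 72 lower. In the root meristem list JKD, a zinc finger gene of ground tissue identity, differed by -0.69 and UPB1 by -0.54, while the vascular regulator gene LHW was higher by 0.56 and BBM by 0.26.

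Plastid transcripts differed by gene group, with ndh and ribosomal genes mostly lower and photosystem genes in both directions. All 10 genes of the plastid NADH dehydrogenase-like complex were called lower (median -0.56). The gene ndhJ read 7.04, 7.20 and 7.3 in the second run, against 8.10, 8.29 and 8.63 in the first (-1.16, SE 0.05, adjusted p = 6.9e-18). Of 17 plastid ribosomal protein and polymerase genes 13 were called lower and 3 higher, with rpl32 at -1.51, rpl33 at -1.05 and rps16 at -0.92, against rps4 at 0.33. The 24 photosystem and cytochrome genes were called lower in 13 and higher in 9: psbJ (-1.0), psbZ (-0.91) and psaJ (-0.88) stood at the low end, and psaA (0.76), psbN (0.64), psbA (0.64) and petD (0.62) at the high end. The gene psaA read 9.31, 9.62 and 9.78 in the second run, against 8.71, 8.85 and 9.0 in the first, without overlap.

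Mitochondrial transcripts were mostly higher. Of 8 nad genes for subunits of respiratory complex I, 7 were called higher and 1 lower (median 0.25). The gene nad2 read 10.5, 10.56 and 10.68 in the second run, against 9.59, 9.98 and 10.10 in the first (0.63, SE 0.04, adjusted p = 1e-13). The one lower gene, nad9, differed by -0.16. Among other mitochondrial genes matR was higher by 0.94 and ccb203 by 1.1, while cox1 (-0.03) and ccb206 (-0.04) were not called. Genes for organelle transcript processing, whose nuclear-encoded products edit or splice plastid and mitochondrial RNA, were called higher in 5 and lower in 0 of 7, led by OTP70 at 0.54.

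Among the 15 most raised named genes, 6 were loci of 1 stretch of chromosome 2 that is known to hold a nuclear copy of the mitochondrial genome. Loci of the stretch were taken by locus number (AT2G07640 to AT2G07798), which does not follow position. Of these 46 named loci 39 were called higher and 3 lower, 14 of them higher beyond 2-fold (0.817% of all genes), with a median of 0.78. The 6 other named genes lying between these loci have numbers outside that range but lie in the same stretch. They were all called higher too, with a median of 0.82 and none beyond 2-fold. The 60 named genes nearest on both sides had a median of 0.12, with 21 called higher, 8 lower and 0 beyond 2-fold higher. The stretch was picked after its values were seen, so these counts carry no test. AT2G07775 read 7.96, 8.14 and 8.25 in the second run, against 5.99, 6.46 and 6.67 in the first (1.76, SE 0.04, adjusted p = 3.6e-22), and AT2G07776 differed by 1.76 as well. Probes for these loci may also bind the transcripts of the mitochondrion itself, so the values cannot be assigned to either copy. The other 9 were RALFL15, sks15, MAG2 and the loci AT4G30320 (1.54), AT1G38131 (1.48), AT3G56370 (1.48), AT2G32730 (1.43), AT5G17980 (1.41) and AT3G23510 (1.40).

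**Figure D4:**
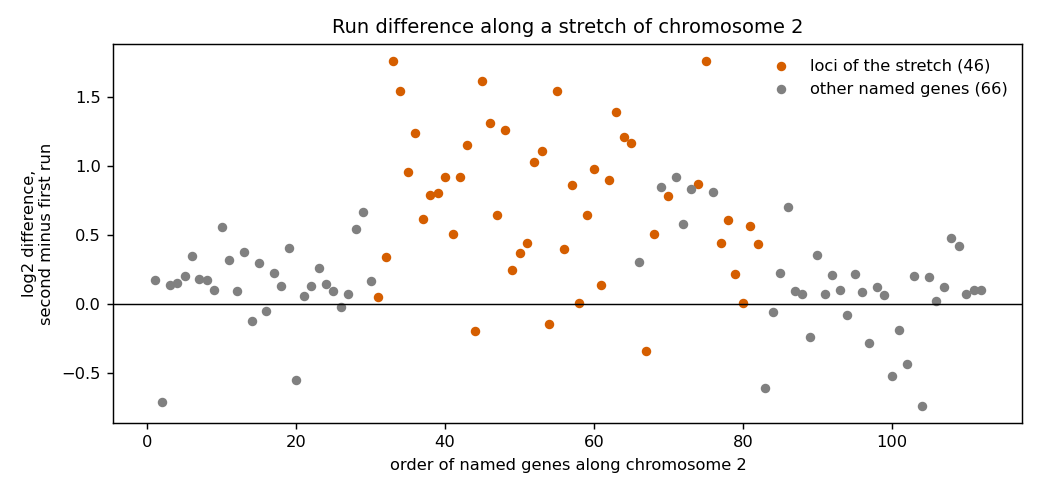
Log2 difference of the second minus the first run (vertical axis) for named genes in their order along chromosome 2 (horizontal axis, 1 step per gene): 46 loci of the stretch, taken by locus number, in orange and 66 other named genes in grey, 6 of them between those loci and 60 on either side. The loci in orange reach 1.76 with a median of 0.78. Medians were 0.82 for the 6 between them, which lie in the same stretch, and 0.12 for the 60 outside.

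Genes lower beyond 2-fold also lay side by side elsewhere. Among 16449 named nuclear genes in chromosomal order, 26 runs of neighbours were beyond 2-fold in the same direction, 22 of them lower and 4 higher, and all 4 higher ones lay in the stretch of chromosome 2 with the mitochondrial copy. Of all 16552 named genes, 421 were lower and 86 higher beyond 2-fold, so more lower than higher runs come from these totals alone. Whether neighbours exceed the number that random order would give was not tested. The longest was of 5 genes, AT1G53610 to AT1G53635, at -2.85 to -1.29. AT2G30660 and its neighbour AT2G30670 (-3.80 and -2.19), AT5G64110 and AT5G64120 (-1.12 and -1.87), and the P450 genes CYP71B22 and CYP71B23 (-1.51 and -1.25) were adjacent pairs. Adjacent copies of a gene can share probe sequence, so neighbours are not independent measurements.

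The run difference varied with gene length in the brighter genes. Among 7432 named genes with a mean array value at or above the median of all genes (4.19), the median difference was -0.45 for genes of 500 to 999 bases, -0.34 for 1000 to 1499, -0.25 for 1500 to 1999, -0.10 for 2000 to 2999, 0.07 for 3000 to 3999, 0.20 for 4000 to 5999 and 0.35 for genes of 6000 bases or more. Of the shortest of these classes 70.6% were called lower and 15.5% higher, and of the longest 9.62% lower and 76.4% higher. Genes under 500 bases, 101 in number and many of them of the plastid, did not extend the trend, at -0.14. Among the dimmer genes all classes had medians above 0, from 0.09 to 0.20. Length is the span from the first to the last base of the gene, introns included, in RefSeq's TAIR10.1 annotation, and 99.8% of named genes had one.

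The relation was present in every pair. Across the 7432 genes, which are not independent replicates, Spearman's correlation of the difference with length was 0.40 for the mean over pairs and between 0.31 and 0.38 in the single pairs. Brighter genes under 2000 bases had pair medians of -0.42 to -0.23, and those of 4000 bases or more 0.15 to 0.30.

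**Figure D5:**
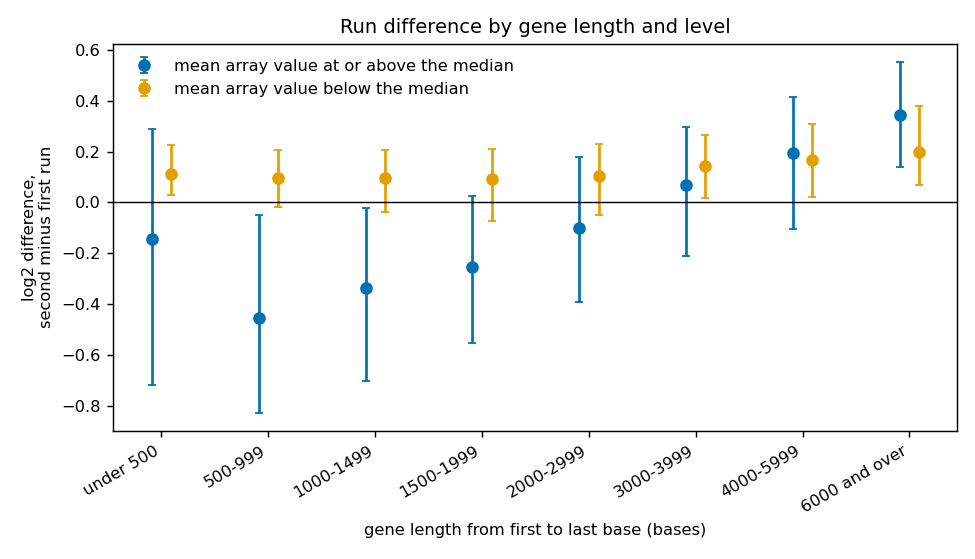
Median log2 difference of the second minus the first run (vertical axis; bars from the first to the third quartile over genes) by class of gene length in bases (horizontal axis), for named genes above (blue) and below (orange) the median of mean array values. In the brighter genes the median climbs from -0.45 at 500 to 999 bases to 0.35 at 6000 bases and over, and in the dimmer ones it stays between 0.09 and 0.20.

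Families were therefore also set against the median of named genes of the same length class and side of the median level. Autophagy genes, at a median length of 1798 bases, had a median of -0.52 relative to their classes, against -0.77 before. The VPS genes had -0.36, the ubiquitin-conjugating enzymes -0.31, the calmodulin-like genes -0.95, the WRKY genes -0.47, the Mediator genes -0.30, the bHLH genes -0.29 and the plastid ndh genes -0.28. The list of touch and wound transcripts had -0.25, against -0.53 before. The plastid ribosomal and polymerase genes had -0.145, against -0.29 before, and the photosystem and cytochrome genes changed sign, to 0.09 against -0.11. The histone list, which holds the H2B genes and also deacetylase genes, had -0.17, against -0.29 before. Of its 8 members 3 lay above the median of their class. Expansins had 0.33, tubulins 0.37, the cation/H+ exchangers 0.18, ubiquitin-specific proteases 0.17, the IQ-domain genes 0.14 and family 9 hydrolases 0.13. By contrast, chromatin remodelling factors (0.00, median length 5220 bases), SEC proteins (-0.01), RNA polymerase subunits (0.03) and Sm-like proteins (0.04) lay at the median of their classes. The part that length plays in the differences of single genes was not tested.

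Run differences were called within each solute. Within PEG 6518 genes were called higher and 6458 lower (23% and 22.8%), within EG 5478 and 5579 (19.4% and 19.7%), within NaCl 4809 and 5132 (17% and 18.1%), and within sorbitol 4256 and 4575 (15% and 16.2%). The control, 1 pair whose spread was taken from the other solutes, gave 1457 and 2144 (5.15% and 7.58%). Sorbitol had 3 pairs and the other solutes 4, so these counts do not rank the solutes.

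A test of whether the run difference itself varied between the 5 solute classes called 95 genes (0.336%), with 12.5% of genes at an unadjusted p under 0.05. Of the 95, 31 were named, 60 were also called for the run difference and 35 had the same sign in 16 of 16 pairs. The 5 named genes with the smallest p were AT3G20362, psbZ, AT5G25020, AT5G18380 and AT1G05650. AT3G20362 read 8.12, 8.37 and 8.77 in the second run, against 7.05, 7.34 and 8.22 in the first. Its run difference was 1.38 within PEG and 1.35 within EG, but 0.01 within sorbitol (interaction adjusted p = 0.000223). AT5G18380 was lower throughout, by 1.59 within PEG and 0.48 within NaCl (interaction adjusted p = 0.00242). These calls depended on how the variance was modelled: without limma's mean-variance trend 7 genes were called.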

How the data were processed

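Whole-root RNA of Arabidopsis was hybridised to 32 arrays, 2 in each of 16 solute and dose groups. The authors deposited 1 table of 28477 probe sets, with log2 values from 0.2 to 12.45; GCRMA, Affymetrix Expression Console and Transcriptome Analysis Console are named in the submitters' processing notes, and the log base, read here as log2 from the range of the deposited values, is not given in the sources used here. Probe sets were named through the platform's gene table: 16746 had 1 gene, 758 several and 10973 none. After 194 probe sets of an already represented gene were set aside, 28283 genes were tested, 16552 of them named. Gene symbols, synonyms, lengths and chromosomal order came from RefSeq's TAIR10.1 table.

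The run contrast was fitted with limma 3.58.1 in R 4.3.3 with the solute and dose group as a block (15 residual degrees of freedom) and a mean-variance trend, and p-values were adjusted by Benjamini-Hochberg over all genes. The interaction of run and the 5 solute classes had 11 residual degrees of freedom. The number of arrays limits the precision. The fit was also run on simulated data with known run differences, built from the group means and residual spread of these arrays. The outcome of that simulation is not given here. The pairing comes from the labels' solute and dose, since the run itself is the only replicate number.

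Named genes were the 15 most raised and the 15 most lowered named genes with the same sign in 16 of 16 pairs, up to 3 called members of each list in each direction, its brightest member, and the 5 smallest interaction p-values. Because only 152 of 1313 entries of the gene lists matched a named probe set (225 list members, since an entry can be a pattern that takes in several genes), 49 families were added by symbol, as was the ranking of genes with a symbol, and further members were named after their values were seen. A symbol says nothing of members that the platform table leaves unnamed. The members, lists, families and comparisons were chosen with earlier results of these data known. Alternatives were another scaling of the arrays, a filter on dim genes, no mean-variance trend, no block, identical rows counted once, and leaving out each pair.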

Additional observations from a re-analysis of the deposited data

Results flagged for a closer look

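In 31 named genes the run difference itself varied between solutes, by limma's interaction of run and solute with adjusted p under 0.05, and 12 of them were among the genes picked by the naming rule. The values below are log2 differences of the second minus the first run.

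Among genes lower in all 16 pairs, AT2G15220 had -3.28 within PEG and -2.36 within NaCl (interaction adjusted p = 0.0494), AT5G64120 -2.62 within PEG and -1.40 within sorbitol (0.0293), XTH18 -1.94 within EG and -1.26 within NaCl (0.0257), and CYP71B22 -2.26 within PEG and -0.95 within NaCl (0.00529). AT5G18380 had -1.59 within PEG and -0.48 within NaCl (0.00242), psbJ -1.22 within PEG and -0.66 within NaCl (0.0346), and psbZ -1.25 within PEG and -0.59 within NaCl (0.00103). EXPB3, higher in all 16 pairs, had 1.65 within NaCl and 0.97 within PEG (0.0494).

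In 4 genes the sign or the presence of a difference varied. AT3G20362 had 1.38 within PEG and 0.01 within sorbitol (0.000223), psbN 0.99 within EG and -0.01 within sorbitol (0.00314), AT5G25020 1.1 within PEG and -0.20 within NaCl (0.00103), and AT1G05650 0.27 within NaCl and -0.33 within EG (0.00275). AT1G05650 had no overall run difference (0.00, adjusted p = 0.995).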

How the results depend on the processing

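The counts of genes called higher, lower, and beyond 2-fold each stayed within 1.5 times their value under every alternative run. Centring each array on its median gave 12749 higher and 6900 lower and moved the median of all genes from 0.06 to 0.13; quantile normalisation gave 8639 and 7676, with a median of 0.02. Without the solute and dose group as replicate block, 9671 were higher and 7920 lower. Leaving out each pair in turn gave 9303 to 9995 higher, 7795 to 7959 lower, 220 to 239 higher beyond 2-fold, 625 to 681 lower beyond 2-fold, and 64 to 129 interaction calls. There were 7 interaction calls without the mean-variance trend, against 95 with it. No named gene that was called reversed under any of these. Of 8699 recomputed gene values 135 lost and 9 gained their call, among them GTR1 and SIM after centring and after quantile normalisation, and rpoC1 without the trend. Family medians near 0 changed sign with scaling: CLE peptides (0.04), xyloglucan endotransglucosylases (0.05) and bZIP factors (0.05) after centring, beta-glucosidases (-0.07) after quantile normalisation. Without the dimmest 25% of genes, defensin-like genes had a median of -0.02 and class III peroxidases of -0.15. The cause was not tested. Nothing in these arrays separates the state of the plants from RNA handling, and the number of arrays limits the precision.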
